A study of Mus musculus with 5 samples.

Results

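The genes studied here are the coreceptor genes and the transcription factors that act in the choice between the CD4 and CD8 lineages in the thymus: Cd4, Cd8a, Cd8b1, Zbtb7b, Runx1, Runx3, Cbfb, Tox, Gata3 and Myb. These 10 genes were chosen by name, from what is known of the lineage choice, out of 22372 protein-coding genes in the annotation. The choice was made with earlier results of these data known, so it was not independent of them. The listed windows of 3 ChIP-seq profiles were collected within 1 kb of each transcription start site (TSS), which is called the promoter here, and over the gene body plus 10 kb upstream, which is called the gene region. TSSs further apart than 1 kb were kept as separate promoters, numbered in the direction of transcription (P1, P2, P3), which gave 17 promoters for the 10 genes.

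CD4+CD8+ double-positive (DP) thymocytes were purified from the thymus and used for ChIP-seq of Cxxc1 and of H3K4me3. WT mice carried the floxed allele on both chromosomes without Cre (Cxxc1 fl/fl), and Cxxc1-deficient mice carried the same alleles with an hCD2-Cre transgene (Cxxc1 fl/fl hCD2-Cre), in which Cre is active from the early lymphoid stages on, in T and other lymphoid cells. The titles call the deficient libraries knockouts, whereas their genotype label reads Cxxc1+/-. The series has 5 samples of 1 library each, namely ChIP for Cxxc1 and for H3K4me3 from both genotypes plus input DNA of WT cells, and the 3 lists analysed here hold Cxxc1, H3K4me3 in WT cells (the WT list) and H3K4me3 in Cxxc1-deficient cells (the Cxxc1-deficient list).

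Trimethylation of histone H3 at lysine 4 marks the promoters of genes that are active or poised, and Cxxc1 (CFP1) is the subunit of the Setd1 methyltransferase complexes that binds unmethylated CpG dinucleotides. DP thymocytes express both coreceptors, and after positive selection they keep CD4 when the receptor recognises MHC class II and CD8 when it recognises MHC class I. Zbtb7b (ThPOK) is the factor that commits cells to the CD4 lineage, Runx3 with its partner Cbfb commits cells to the CD8 lineage, and Runx1 with Cbfb silences Cd4 in earlier thymocytes. Gata3, Tox and Myb act upstream of Zbtb7b in cells on the way to the CD4 lineage.

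A window was 200 bp long, and its value was the number of tags per 1000000 mapped reads (RPM). About 9.46 M tags lay behind the WT list and 9.45 M behind the Cxxc1-deficient list, so that 1 tag was worth about the same in both. The WT list held 14237 peaks, the Cxxc1-deficient list 2979 and the Cxxc1 list 4352, a peak being a run of listed windows with gaps of at most 2 windows. Only windows that passed the authors' peak calling were listed, the weakest peak holding 1.1 RPM (10 tags). A place without a listed window was therefore below the calling threshold and has no value, which is not the same as 0. With 1 library per group no difference could be tested between genotypes, and the intervals given are exact 95% Poisson intervals that cover counting error only. Promoters of cell type markers were also counted. Over all genes, 31.1% had a WT window at a promoter and 5.86% a Cxxc1-deficient one. Of 7 annotated DP markers 3 had WT windows (Cd8a, Cd8b1 and Cd3e), whereas Cd4, Rag1, Rag2 and Cd3d had none. In Cxxc1-deficient cells Cd8a, Cd3e (1.9 RPM) and Rag1 (0.7 RPM) were listed and Cd8b1 was not. Of the markers of other cells, 2 of 5 for B cells (Cd79b with 0.4 RPM and Ebf1 with 1.7 RPM), 1 of 3 for erythroid cells (Klf1 with 0.9 RPM), and none of 4 for myeloid or 2 for NK cells had WT windows. The one such marker in the Cxxc1-deficient list was the erythroid Epor, with 1.9 RPM in 5 windows and none in WT. The DP and B-cell counts in WT lay near the share of all genes, so the DP label could not be checked in this way. The part of other cells in the results was not tested.

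The promoter sequences that the results below turn on differ widely in their CpG content. The 250 bp upstream of the TSS are shown for the 3 promoters listed in both genotypes (Cd8a, Runx1 P1 and Gata3 P2) and for 3 promoters listed in WT cells alone (Cd8b1, Runx3 P2 and Myb), read 5′ to 3′ on the gene's strand from the NCBI m37 (mm9) genome. Capitals mark CpG dinucleotides.
Cd8a promoter, chr6:71323171-71323420 (+): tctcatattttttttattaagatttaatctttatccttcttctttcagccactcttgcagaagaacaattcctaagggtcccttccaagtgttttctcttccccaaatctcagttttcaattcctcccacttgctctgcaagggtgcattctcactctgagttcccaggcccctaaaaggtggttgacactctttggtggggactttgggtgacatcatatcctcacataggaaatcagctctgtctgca
Runx1 P1 promoter, chr16:92826312-92826561 (-): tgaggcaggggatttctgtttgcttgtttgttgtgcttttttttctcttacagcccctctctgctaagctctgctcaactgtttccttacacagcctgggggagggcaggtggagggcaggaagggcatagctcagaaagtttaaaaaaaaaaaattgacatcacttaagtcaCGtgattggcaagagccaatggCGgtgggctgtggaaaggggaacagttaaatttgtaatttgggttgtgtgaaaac
Gata3 P2 promoter, chr2:9800228-9800477 (-): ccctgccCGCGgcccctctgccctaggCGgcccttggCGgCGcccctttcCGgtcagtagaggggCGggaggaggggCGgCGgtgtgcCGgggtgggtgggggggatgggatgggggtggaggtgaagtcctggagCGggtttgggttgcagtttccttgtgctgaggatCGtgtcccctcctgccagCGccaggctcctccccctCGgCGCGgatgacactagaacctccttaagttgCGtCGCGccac
Cd8b1 promoter, chr6:71272580-71272829 (+): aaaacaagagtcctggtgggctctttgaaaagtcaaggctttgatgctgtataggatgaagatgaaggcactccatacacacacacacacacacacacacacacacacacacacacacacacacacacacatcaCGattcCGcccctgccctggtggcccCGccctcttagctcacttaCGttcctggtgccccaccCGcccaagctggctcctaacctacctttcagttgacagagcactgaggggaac
Runx3 P2 promoter, chr4:134708161-134708410 (+): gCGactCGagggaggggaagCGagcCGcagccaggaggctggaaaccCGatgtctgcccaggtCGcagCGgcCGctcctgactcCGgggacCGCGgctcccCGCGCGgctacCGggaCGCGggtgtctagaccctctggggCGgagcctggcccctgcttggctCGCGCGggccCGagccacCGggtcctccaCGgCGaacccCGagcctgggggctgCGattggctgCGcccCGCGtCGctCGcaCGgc
Myb promoter, chr10:20880791-20881040 (-): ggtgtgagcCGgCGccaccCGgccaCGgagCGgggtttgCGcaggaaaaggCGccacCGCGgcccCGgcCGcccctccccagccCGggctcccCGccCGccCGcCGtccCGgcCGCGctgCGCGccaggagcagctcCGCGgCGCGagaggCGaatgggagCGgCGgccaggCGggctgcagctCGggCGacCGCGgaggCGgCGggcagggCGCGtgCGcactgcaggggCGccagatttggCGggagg

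No CpG lay in the 250 bp of Cd8a and 2 lay in those of Runx1 P1, against 19 for Gata3 P2, 33 for Runx3 P2 and 40 for Myb. The median over all 30022 promoters was 6. Cd8b1 held 5 CpGs and a run of CA repeats. Over the 2 kb centred on the TSS, the ratio of observed to expected CpGs ranged among the 17 promoters from 0.151 at Cd4 P2 to 0.921 at Cbfb, with Cd8a at 0.294 and Cd8b1 at 0.226. The median ratio was 0.636 for all promoters with WT windows and 0.272 for those without. Cd8a, Cd8b1 and Zbtb7b P3, at 0.199, had WT windows and CpG ratios below the median of the unlisted promoters or close to it, whereas Runx3 P2 (0.779), Myb (0.778), Runx1 P2 (0.745) and Tox (0.719) lay above the median of the listed ones. Promoters listed in both genotypes had a median ratio of 0.653 over all genes and those listed in WT cells alone 0.634, and of the 3 promoters of lineage genes listed in both, Cd8a at 0.294 and Runx1 P1 at 0.356 lay below both medians and Gata3 P2 at 0.686 above them. The letters TGTGGT, the core of the sequence bound by Runx factors, were searched on both strands of the same 250 bp and were present in 13.6% of all promoters. Zbtb7b P2, Zbtb7b P3 and Tox held 1 match each and Runx3 P1 held 2, a description of the letters and not of binding.

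**Figure D1:**
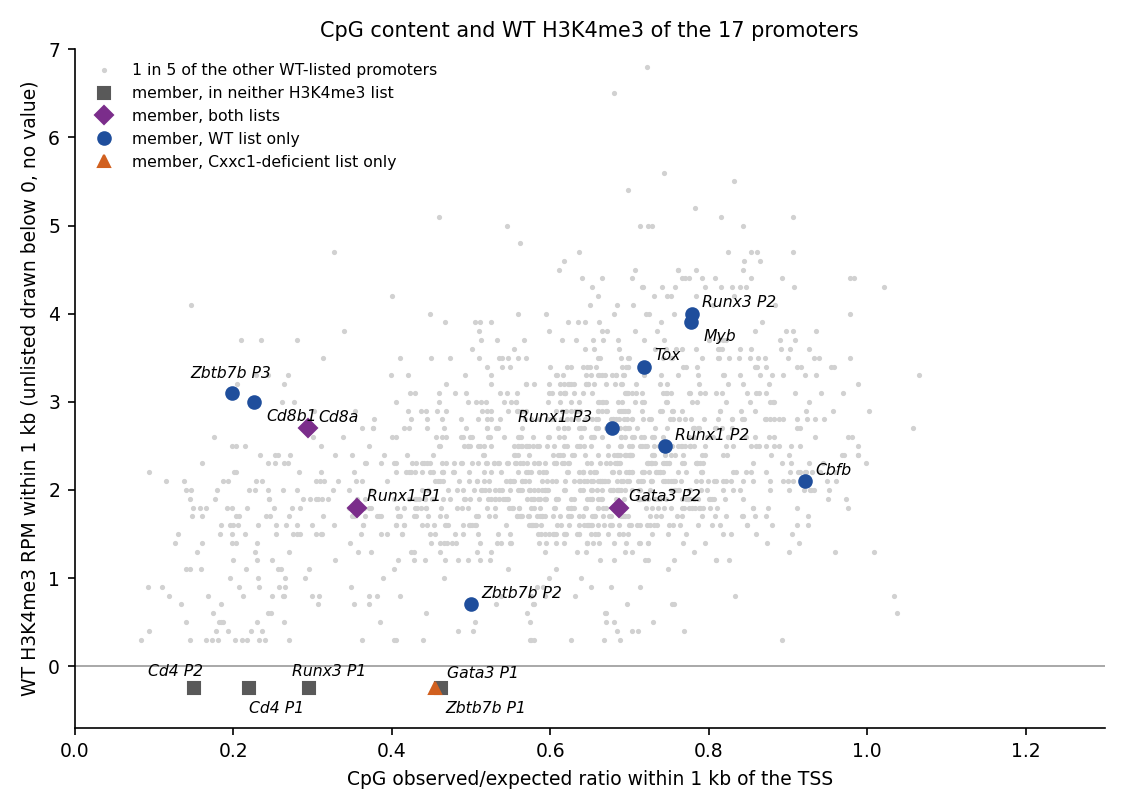
CpG observed/expected ratio in the 2 kb around the TSS (horizontal) against WT H3K4me3 RPM within 1 kb of the TSS (vertical), for the 17 promoters (large symbols, unlisted ones below the zero line) and for 1 in 5 of all other WT-listed promoters (small grey points). Cd8a, Cd8b1 and Zbtb7b P3 sit at ratios from 0.199 to 0.294 with 2.7 to 3.1 RPM, left of most grey points, and Cbfb has the highest ratio, 0.921, with 2.1 RPM.

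H3K4me3 was listed at a promoter of 9 of the 10 genes in WT cells, all but Cd4, while 31.1% of all protein-coding genes had such a promoter. In Cxxc1-deficient cells 3 of the 10 genes were listed, namely Cd8a, Runx1 and Gata3, against 5.86% of all genes. Of the 9 genes listed in WT cells these 3 were also listed in Cxxc1-deficient cells, where 12.8% of all WT-listed genes were. For Runx1 the promoter listed in both was P1, and its WT-listed promoters P2 and P3 were not in the Cxxc1-deficient list. When the promoter of each gene with the most WT windows was taken alone, a choice made after the data had been seen, 2 genes remained (Cd8a and Gata3). The share of all genes was not counted under that rule, so this number has no background. No member had a Cxxc1 window at a promoter, where 1.96% of all genes had one.

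**Figure D2:**
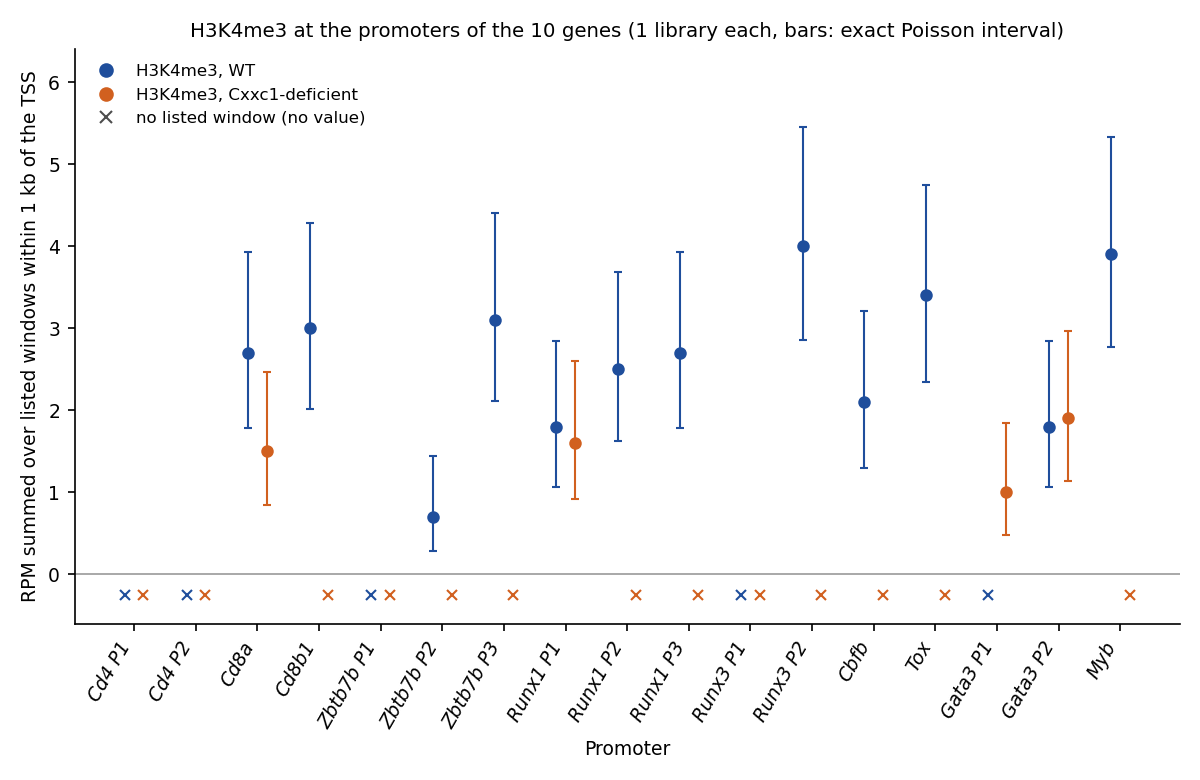
H3K4me3 RPM summed over the listed windows within 1 kb of the TSS (vertical) at each of the 17 promoters (horizontal) in WT (blue) and Cxxc1-deficient cells (orange), 1 library each, bars giving 95% Poisson intervals and crosses marking promoters with no listed window. WT points run from 0.7 RPM at Zbtb7b P2 to 4.0 RPM at Runx3 P2, and the orange points are 1.5 RPM at Cd8a, 1.6 at Runx1 P1, 1.0 at Gata3 P1 and 1.9 at Gata3 P2.

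Among the coreceptor genes, both CD8 genes had listed H3K4me3 windows at the promoter in WT cells, and Cd4 had none within 1 kb of its TSSs. Cd8a (chr6:71323421-71329165, plus strand) encodes the alpha chain that is present in every CD8 dimer. Its promoter held 2.7 RPM in 8 WT windows (27 tags, 17.8 to 39.3), and 1.5 RPM in 5 Cxxc1-deficient windows (15 tags, 8.40 to 24.7). The counting intervals of the genotypes overlapped. In both genotypes the highest window lay 280 bp downstream of the TSS, with 0.5 RPM for WT and 0.4 RPM for the deficient library. The 4 windows listed in both summed to 1.4 RPM for WT and to 1.2 RPM for the deficient library, so most of the gap between the sums lay in windows that were listed in only one of them. The whole peak ran over 2800 bp with 3.5 RPM in WT and 2200 bp with 2.1 RPM in Cxxc1-deficient cells. Among WT-listed genes Cd8a stood at the 64.1 percentile of promoter RPM, and among genes of the Cxxc1-deficient list at the 27.2 percentile.

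Cd8b1 (chr6:71272830-71287471, plus strand), the gene of the CD8 beta chain, lies 50.6 kb from Cd8a by their TSSs on the same strand. It had 3 WT peaks and none in Cxxc1-deficient cells. The promoter peak held 3.0 RPM in 8 windows (30 tags, 20.2 to 42.8), with its highest window, 0.6 RPM, 70 bp downstream of the TSS. A further peak of 3.4 RPM lay in intron 1 and another of 3.0 RPM in intron 4. The region therefore held 9.4 RPM of listed WT signal, against 3.5 RPM for Cd8a. A peak of 3.0 RPM exceeds 90.2% of the peaks of the Cxxc1-deficient list. The promoter peak also lay within 1 kb of the TSSs of Smyd1, a muscle methyltransferase gene transcribed in the opposite direction from 603 bp away, and the listed windows cannot be assigned to either gene. A WT peak of 2.5 RPM lay between the CD8 genes, 21.1 kb upstream of Cd8a and outside both gene regions, and was not listed in Cxxc1-deficient cells.

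**Figure D3:**
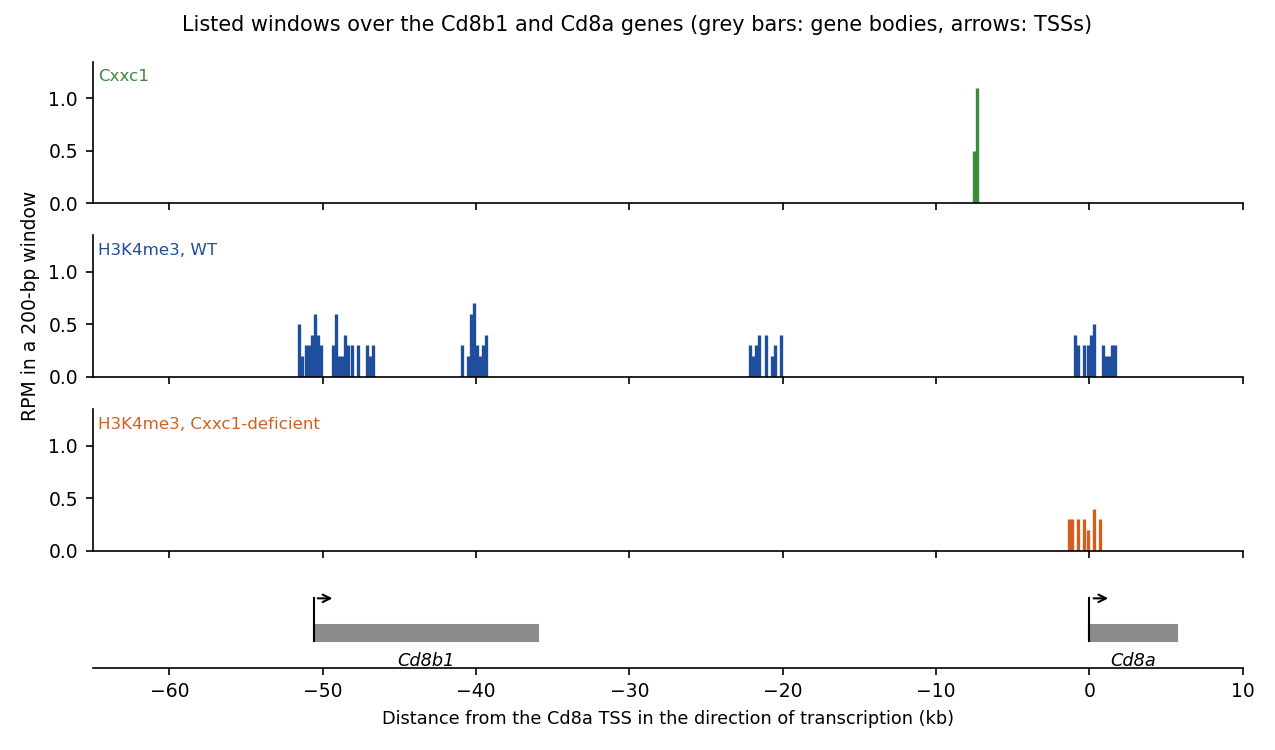
RPM of listed 200-bp windows (vertical) for Cxxc1, WT H3K4me3 and Cxxc1-deficient H3K4me3 against distance from the Cd8a TSS in kb (horizontal), with gene bodies as grey bars. WT windows form 3 peaks over Cd8b1, 1 peak between the genes and 1 at Cd8a, the Cxxc1-deficient windows sit at Cd8a alone, and the Cxxc1 windows lie 7.42 kb upstream of Cd8a.

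Cd4 (chr6:124814710-124838239, minus strand) had no listed window at either annotated promoter in any list. A single WT peak of 2.2 RPM (22 tags, 13.8 to 33.3) lay in intron 1, chr6:124835001-124837000, with its centre 2.24 kb downstream of P1, and it reached the promoter when that was widened to 2 kb. This peak exceeded 62.0% of the peaks in the Cxxc1-deficient list, and no Cxxc1-deficient peak overlapped it. Further upstream, outside the gene region, Cxxc1-deficient peaks of 2.4 and 1.5 RPM lay 12.8 and 15.7 kb from P1, and the WT peak nearest on that side, of 3.2 RPM, lay 26.2 kb away. Within the Cd4 gene region only the WT list had a peak, away from the promoters, and the peaks outside the region were not assigned to a gene.

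Zbtb7b (chr3:89181566-89198698, minus strand), the gene of the CD4-lineage factor ThPOK, was covered by 3 WT peaks with 12.8 RPM in all. No window was listed at P1, the most upstream group of 6 TSSs. P2 held 0.7 RPM in 2 WT windows (7 tags, 2.81 to 14.4), and P3, 6.01 kb downstream of P1, held 3.1 RPM in 9 windows (31 tags, 21.1 to 44.0). The peak over P3 was 4400 bp long with 5.9 RPM, stronger than 97.9% of the WT list and than 99.3% of the Cxxc1-deficient list. A second strong peak, of 4.7 RPM, covered the last exon at the 3′ end, chr3:89181001-89184600. Neither of these strong peaks had a Cxxc1-deficient counterpart. The one Cxxc1-deficient peak, of 1.8 RPM in intron 1 (chr3:89193001-89194400), overlapped the weakest of the WT peaks, of 2.8 RPM, over 1200 bp, and the 4 windows that they shared held 1.2 RPM in each. That peak ended more than 1 kb from every Zbtb7b TSS, and Zbtb7b was not counted as listed at a promoter in Cxxc1-deficient cells.

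Gata3 (chr2:9778705-9811661, minus strand) encodes the zinc-finger factor needed for Zbtb7b expression in CD4-fated cells. Its promoters were listed differently in the genotypes. P1 had no WT window and 3 Cxxc1-deficient windows with 1.0 RPM (10 tags, 4.80 to 18.4). P2, 11.4 kb downstream, held 1.8 RPM in 5 WT windows (18 tags) and 1.9 RPM in 6 Cxxc1-deficient windows (19 tags, 11.4 to 29.7). At P2 the WT signal lay mostly downstream of the TSS, 1.4 of 1.8 RPM, and the Cxxc1-deficient signal mostly upstream, 1.4 of 1.9 RPM, and the peaks overlapped over 400 bp and their 2 shared windows held 0.7 RPM for WT and 0.8 RPM for the deficient library. A further pair of overlapping peaks lay between the promoters in intron 1, of 1.9 RPM (WT) and 2.0 RPM (Cxxc1-deficient). Their centres lay within 0.537 kb of a TSS of 4930412O13Rik and within 0.920 kb of a TSS of 9230102O04Rik, and Gata3 and these genes cannot be told apart there. Of the 9 Cxxc1-deficient peaks in all the gene regions 3 lay in Gata3. Its Cxxc1-deficient windows at P1 and P2 together summed to 2.9 RPM, at the 95.0 percentile of the genes of that list. P2 alone held 1.9 RPM, where the median gene of the Cxxc1-deficient list held 1.8 RPM. The WT promoter sum of 1.8 RPM was at the 24.0 percentile of the WT list, but the whole peak at P2 held 3.4 RPM in WT and 2.4 RPM in the deficient library, and the windows of the gene region summed to 7.1 and 6.0 RPM, so the order of the genotypes at Gata3 depended on the span counted.

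Tox and Myb each had 1 WT peak, at the promoter, and none in Cxxc1-deficient cells. Tox (chr4:6613500-6918704, minus strand), an HMG-box factor needed for the CD4 lineage, held 3.4 RPM in 9 windows (34 tags, 23.5 to 47.5), and the whole peak of 3.8 RPM exceeded 97.5% of the Cxxc1-deficient list. Myb (chr10:20844736-20880790, minus strand), which is needed throughout early thymocyte development, held 3.9 RPM in 8 windows (39 tags, 27.7 to 53.3) with the highest window of any promoter here, 0.8 RPM at 110 bp upstream of the TSS. Its whole peak of 5.8 RPM (58 tags) exceeded 99.3% of the Cxxc1-deficient list.

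Runx1 (chr16:92601712-92826311, minus strand) encodes the Runx factor of DP cells and had the most peaks, 11 in WT and 4 in Cxxc1-deficient cells over 225 kb. The distal promoter P1 held 1.8 RPM in 5 WT windows (18 tags, 10.7 to 28.4) and 1.6 RPM in 5 Cxxc1-deficient windows (16 tags, 9.15 to 26.0). The counting intervals at P1 overlapped, although the 3 windows listed in both held 1.3 RPM for WT against 0.9 RPM for the deficient library, and the Cxxc1-deficient peak reached further into the gene. Over whole peaks the order was the opposite, with 1.8 RPM (18 tags) for WT and 2.6 RPM (26 tags) for the deficient library, and the counting intervals overlapped again. The proximal promoters P2 and P3 lie 129 kb downstream of P1, and they shared a single WT peak of 6000 bp (chr16:92694401-92700400). That peak held 6.9 RPM in 20 windows (69 tags, 53.7 to 87.3), more than 98.9% of the WT list, and it was the strongest of all peaks at the lineage genes. No Cxxc1-deficient window was listed there. Of the peaks of that list 99.3% were weaker than 6.9 RPM, which does not give the deficient signal at this place. The promoters of Runx1 thus differed in their listing and in their CpGs: P1, listed in both genotypes, had a CpG ratio of 0.356 over 2 kb and 2 CpGs in its 250 bp, while P2 and P3, listed in WT cells alone, had ratios of 0.745 and 0.678 with 27 and 7 CpGs.

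Within the Runx1 gene region the 9 other WT peaks held 1.8 to 2.7 RPM and lay from 6.79 kb upstream to 205 kb downstream of P1, most of them in intron 2. Of these, 1 was overlapped by a Cxxc1-deficient peak, 25.3 kb downstream of P1, the WT peak holding 2.1 RPM, the deficient one 2.3 RPM, and both sharing 2 windows. The remaining Cxxc1-deficient peaks, of 2.5 and 2.0 RPM, lay in intron 6, 193 and 186 kb downstream of P1, where no WT peak was listed.

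Runx3 (chr4:134676567-134733905, plus strand), the Runx factor of the CD8 lineage, had 5 WT peaks and no Cxxc1-deficient one. The distal promoter P1, from which the transcript of mature CD8 T cells starts, had no listed window in any list. P2, 31.8 kb downstream, held 4.0 RPM in 10 WT windows (40 tags, 28.6 to 54.5), the highest promoter sum of the 17 promoters. The peak over P2 held 4.9 RPM and exceeded 99.0% of the Cxxc1-deficient list. Outside the gene region, a Cxxc1-deficient peak of 3.4 RPM lay 46.2 kb upstream of P1, overlapping a WT peak of 14.9 RPM. The other WT peaks of the gene region were weaker, with 1.5 to 2.2 RPM, and a peak of 1.5 RPM exceeds 3.76% of the Cxxc1-deficient list, so most of that list was stronger than such a peak. Cbfb (chr8:107694574-107741886, plus strand) encodes the partner that all Runx factors need for stable DNA binding, and its promoter held 2.1 RPM in 5 WT windows (21 tags, 13.0 to 32.1). Its peak exceeded 53.8% of the Cxxc1-deficient list, in which it had no counterpart.

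**Figure D4:**
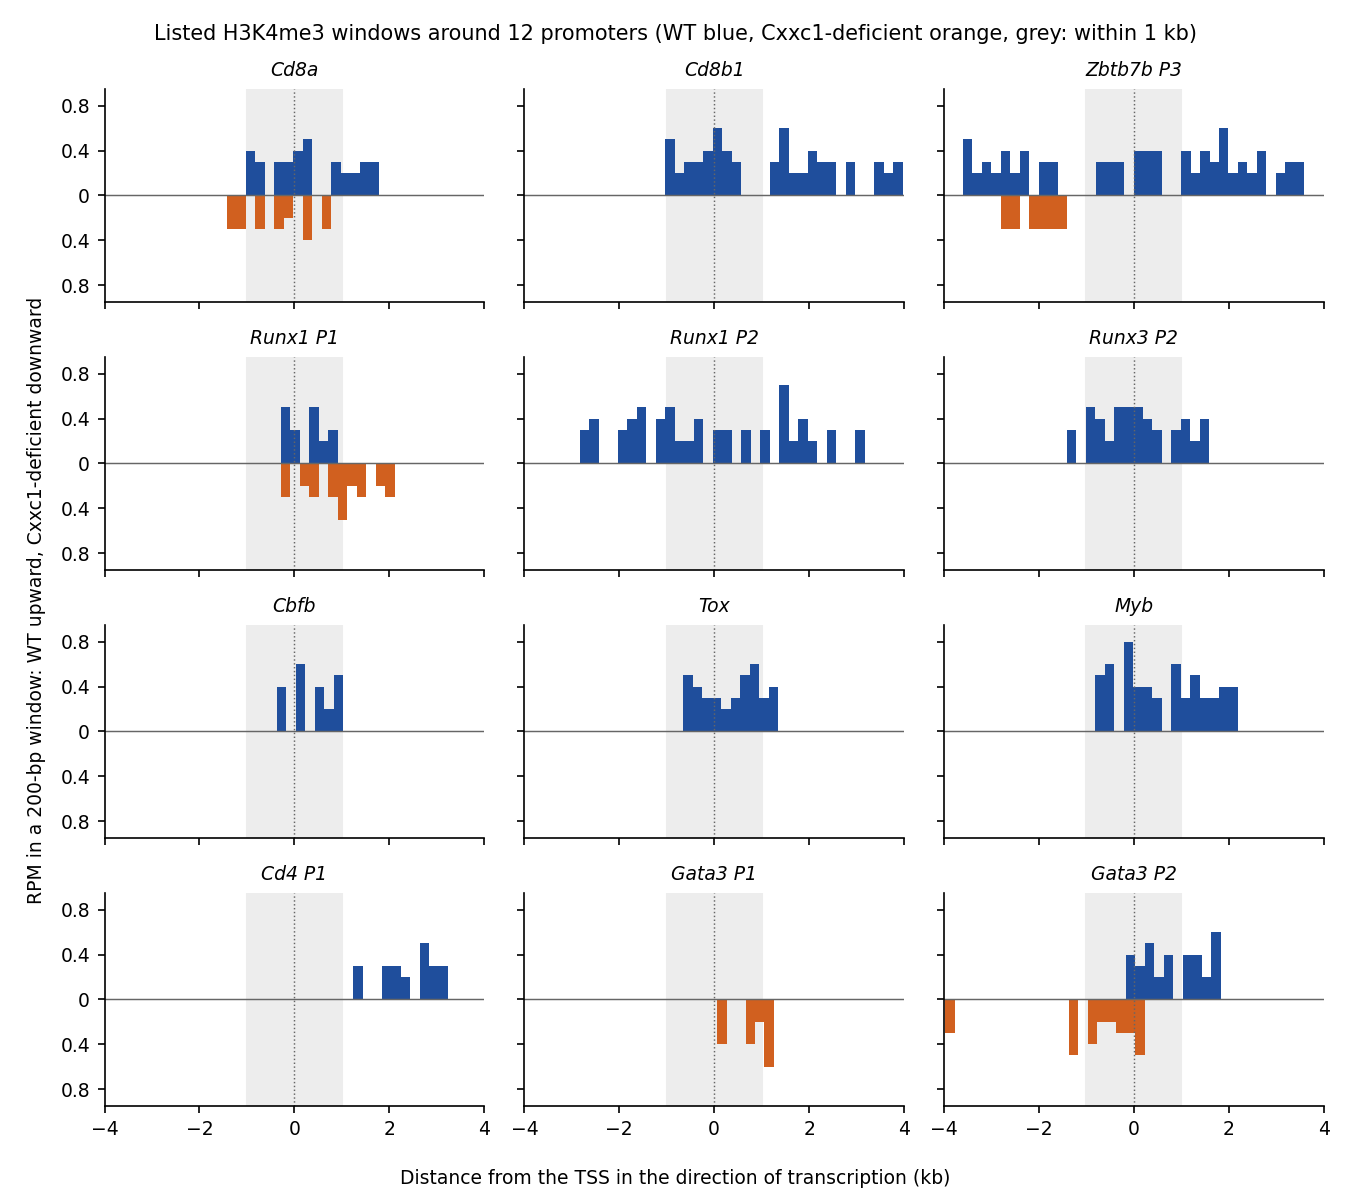
RPM of listed 200-bp windows against distance from the TSS in kb in the direction of transcription for 12 of the promoters, WT upward in blue and Cxxc1-deficient downward in orange, with the promoter range of 1 kb on each side in grey. Cd8a and Runx1 P1 show both colours over the same places, Gata3 P2 shows blue mainly downstream and orange mainly upstream of the TSS, and Cd8b1, Runx1 P2, Runx3 P2, Cbfb, Tox and Myb show blue alone.

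All 10 gene regions held a WT peak, against 41.5% of all genes, and 4 held a Cxxc1-deficient peak (Cd8a, Zbtb7b, Runx1 and Gata3), against 11.0%. These shares were not matched for gene length, and the 10 genes reached 305 kb where the median of all genes was 15.4 kb. Over the 0.865 Mb of the 10 regions together, the WT list had 30 peaks, or 34.7 per Mb (23.4 to 49.5), where all gene regions had 10.5 per Mb. The Cxxc1-deficient list had 9 peaks, or 10.4 per Mb (4.76 to 19.8), where all gene regions had 2.03 per Mb. These intervals treat peaks as independent, while 16 of the 30 WT peaks lay in Runx1 and Runx3. Of the 9 Cxxc1-deficient peaks 7 lay in Runx1 and Gata3, and 6 of the 10 regions held none. Of the 30 WT peaks 6 were overlapped by a Cxxc1-deficient peak, while 8.17% of all WT peaks were, and of the 9 Cxxc1-deficient peaks 6 were overlapped by a WT peak, while 38.7% of that list were. The overlapped WT peaks had a median of 2.45 RPM and the others of 2.2 RPM, and 4 of the 6 were among the 11 WT peaks that reached a promoter. The same split by promoter was not counted over all WT peaks, so it cannot be called particular to these genes. The strongest 10% of the WT list began at 3.9 RPM and held 5 of the lineage gene peaks, at Zbtb7b (2), Runx1, Runx3 and Myb. None of these 5 was overlapped by a Cxxc1-deficient peak, and 19.3% of the strongest 10% over the whole list were, so with 5 peaks the shares cannot be told apart.

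Cxxc1 itself was listed in the regions of 5 of the 10 genes (Cd8a, Runx1, Runx3, Tox and Gata3), while 11.1% of all genes had such a window. With peaks of at least 2.2 RPM alone, 1 of the 10 genes (Runx1) remained, against 3.11% of all genes. Gene length bears on the count: 48.3% of the genes of 200 kb or more had a Cxxc1 window, and Runx1 and Tox, both that long, were among the 5. The median length of all genes was 15.4 kb, and the 10 genes ranged from 5.75 kb for Cd8a to 305 kb for Tox. Per Mb of region the 7 Cxxc1 peaks gave 8.10 (3.26 to 16.7), against 2.41 over all gene regions. This interval again treats peaks as independent, while 3 of the 7 lay in Runx1 and 5 of the 10 regions held none. Of the 7 peaks 6 were intronic and 1 lay upstream of a gene, and they held 1.4 to 2.2 RPM (13 to 21 tags), where the median of the Cxxc1 list was 1.7 RPM.

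The Cxxc1 peaks of 3 genes are shown by their highest 200-bp window, because they lie near or over H3K4me3 or hold the strongest window. Sequences are those of the plus strand of NCBI m37 (mm9), 5′ to 3′, with CpGs in capitals.
Cd8a upstream, chr6:71316001-71316200 (+): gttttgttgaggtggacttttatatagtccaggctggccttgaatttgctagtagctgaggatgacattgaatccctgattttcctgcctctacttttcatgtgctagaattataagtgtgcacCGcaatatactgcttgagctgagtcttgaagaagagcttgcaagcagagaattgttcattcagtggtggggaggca
Runx1 intron 6, distal peak, chr16:92621801-92622000 (+): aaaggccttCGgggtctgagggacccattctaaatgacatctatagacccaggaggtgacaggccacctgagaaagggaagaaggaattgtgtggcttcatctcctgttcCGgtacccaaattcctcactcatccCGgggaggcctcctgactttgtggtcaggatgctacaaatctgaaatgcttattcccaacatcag
Runx1 intron 6, proximal peak, chr16:92640601-92640800 (+): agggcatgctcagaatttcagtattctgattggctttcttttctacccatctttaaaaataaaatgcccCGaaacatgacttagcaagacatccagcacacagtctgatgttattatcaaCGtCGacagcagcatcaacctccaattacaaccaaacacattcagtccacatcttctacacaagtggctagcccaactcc
Runx1 intron 3, chr16:92689001-92689200 (+): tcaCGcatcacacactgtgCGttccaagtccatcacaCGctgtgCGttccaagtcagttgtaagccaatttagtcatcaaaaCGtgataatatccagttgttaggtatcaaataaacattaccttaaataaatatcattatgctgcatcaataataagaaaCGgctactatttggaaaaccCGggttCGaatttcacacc
Gata3 intron 3, chr2:9791001-9791200 (+): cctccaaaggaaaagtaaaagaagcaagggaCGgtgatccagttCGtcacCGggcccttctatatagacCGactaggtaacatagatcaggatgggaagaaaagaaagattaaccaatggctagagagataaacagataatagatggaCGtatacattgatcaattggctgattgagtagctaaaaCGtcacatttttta

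The Cd8a peak (chr6:71315801-71316200) lay 7.42 kb upstream of the TSS and 6.20 kb from the WT H3K4me3 peak, and was counted because regions reached 10 kb upstream. It held 1.6 RPM (15 tags, 8.40 to 24.7) in 2 windows of 0.5 and 1.1 RPM, and the higher window exceeded the highest window of 97.2% of all Cxxc1 peaks. It held 1 CpG, where the median over the highest windows of all 4352 Cxxc1 peaks was 2 and 16.0% held none. At Runx1 the 3 peaks lay 205, 186 and 137 kb downstream of P1 and held 2.2, 2.0 and 1.8 RPM. The most distal overlapped a WT H3K4me3 peak of 1.8 RPM over 600 bp, where the 2 shared windows held 0.5 RPM of Cxxc1 and 1.3 RPM of H3K4me3. It was the only Cxxc1 peak at the 10 genes that met a WT peak, 1 of 7, and 6.30% of all Cxxc1 peaks did so. The next one overlapped the Cxxc1-deficient H3K4me3 peak 186 kb downstream of P1 over 1000 bp, with 4 shared windows, while no WT peak was listed there. This was again 1 of 7, against 1.19% of all Cxxc1 peaks. Of the 7 highest windows 1, that of the most distal Runx1 peak, held TGTGGT on either strand, as did 16.5% over the whole Cxxc1 list.

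The Runx1 peak in intron 3 (chr16:92689001-92689800) lay 4.60 kb beyond the end of the strong WT peak over P2 and P3, and its highest window held 8 CpGs, more than 94.2% of Cxxc1 peaks. At Gata3 the Cxxc1 peak of 1.4 RPM in intron 3 (chr2:9790801-9791600) ended 200 bp before a WT H3K4me3 peak of 1.8 RPM, and its highest window held 6 CpGs. At Runx3 a peak of 1.5 RPM lay in intron 1, 4.73 kb downstream of P1 and 9.20 kb from the nearest WT H3K4me3 peak. At Tox a peak of 1.6 RPM lay in intron 3, 223 kb downstream of the promoter. The listed Cxxc1 places were therefore apart from the promoters in all 5 genes, and Cd8a, Runx1 and Gata3 combined a Cxxc1 peak in the region with H3K4me3 at a promoter in both genotypes, 3 of the 10 genes against 0.684% of all genes. With peaks of at least 2.2 RPM this was 1 gene (Runx1), against 0.107% of all genes. With 5 kb upstream in place of 10 kb it was 2 genes (Runx1 and Gata3), against 0.639%. The combined count was not among the results planned beforehand, and both settings were chosen after the data had been seen. These shares were not matched for gene length or for the number of promoters of a gene. The other 2 genes with a Cxxc1 peak, Runx3 and Tox, had no Cxxc1-deficient window in their regions.

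**Figure D5:**
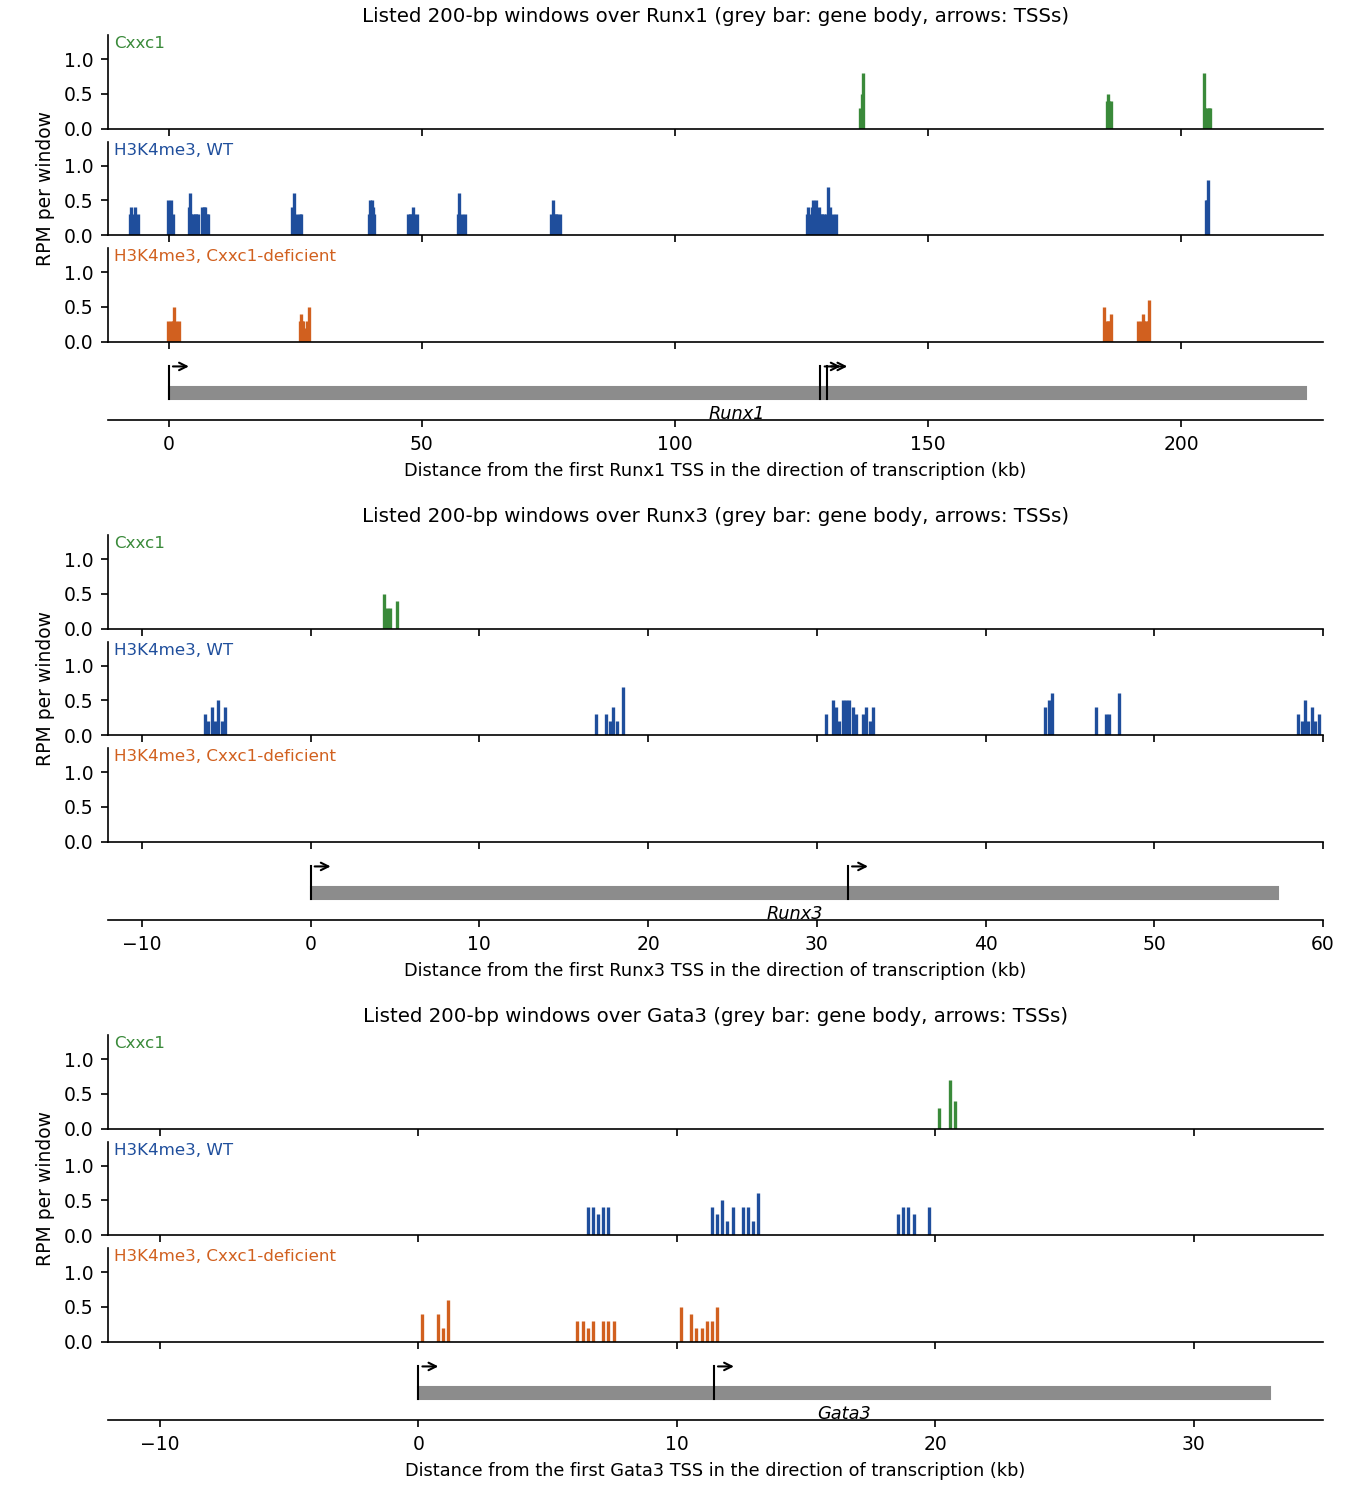
RPM of listed 200-bp windows (vertical) for Cxxc1, WT H3K4me3 and Cxxc1-deficient H3K4me3 against distance from the first TSS in kb (horizontal) over Runx1, Runx3 and Gata3, with the gene body as a grey bar and the TSSs as arrows. The widest WT cluster of Runx1, 6000 bp, lies at P2 and P3, 129 kb downstream, with no orange windows below it, Runx3 has no orange windows, and the Gata3 orange windows at 0.661 kb have no blue ones above them.

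A wider list of 23 further regulators of thymocyte development and lineage choice was counted in the same way. WT windows were listed at promoters of 18 of the 23 genes and Cxxc1-deficient windows at 6, against 31.1% and 5.86% of all genes, and the 6 were all among the 18. These were Lef1 (4.3 RPM for WT, 2.5 RPM for the deficient library), Patz1 (6.3 and 1.7 RPM), Egr1 (3.3 and 1.9 RPM), Bcl6 (3.5 and 2.3 RPM), Socs1 (5.4 and 3.5 RPM) and Zap70 (4.8 and 1.5 RPM). Lef1, Patz1 and Bcl6 are transcription factors, Egr1 is induced by T cell receptor signals, Socs1 restrains cytokine signals and Zap70 is the kinase of the T cell receptor. A Cxxc1 window was listed in 7 of the 23 gene regions, against 11.1% of all genes, namely those of Tcf7, Bcl11b, Satb1, Tcf12, Egr1, Lck and Zap70. Egr1, Satb1, Bcl11b, Lck and Zap70 are named by the study as Cxxc1 targets from the same ChIP, so this count is not independent. Gene length was not matched here either. Tcf7, which encodes TCF-1, was the one gene of the 23 with Cxxc1 at a promoter, where 1.96% of all genes had it, with 2.0 RPM in 5 windows, and its promoter held 5.5 RPM of H3K4me3 in WT cells with no listed window in Cxxc1-deficient cells. Bcl11b, a factor of T cell commitment, had 33 Cxxc1 windows in its region. Il7r and Smarcc1 had no listed H3K4me3 or Cxxc1 window in their regions in any list.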

How the data were processed

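The authors sequenced ChIP DNA of DP thymocytes as 50-bp reads, kept uniquely mapped reads on mm9 and called enriched islands with SICER. The submitters' processing notes name CASAVA 1.8.2 and SICER 1.1, and the aligner is not given in the sources used here. The deposited values are RPM per 200-bp window of the called islands, rounded by the authors to 1 decimal. For the Cxxc1 islands the controls were WT input and the Cxxc1-deficient Cxxc1 ChIP. The controls used for the H3K4me3 lists are not stated separately. RPM sets each library to the same total, so a change of all H3K4me3 at once would not appear as a change of the values. The input and the Cxxc1-deficient Cxxc1 library were not analysed here. The Cxxc1 list names no genotype in its file, and the study's methods describe Cxxc1 islands in WT cells.

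Windows were read in mm9 coordinates, counted from 1. Listed windows with at most 2 missing windows between them were joined into peaks. The RPM of 1 tag was inferred from the steps of the values (0.1056 to 0.1058 in WT, 0.1058 to 0.1060 in Cxxc1-deficient and 0.1097 to 0.1100 in Cxxc1), which gave depths of 9.456 to 9.470, 9.438 to 9.452 and 9.095 to 9.120 M tags (M, 1000000) and tag numbers that are approximate because of the rounding. TSSs of protein-coding transcripts and exons came from GENCODE M1 on NCBI m37. A window belonged to a promoter or region if it overlapped it by 1 bp. With 1 library in each group no test was run, and shares of genes were set beside the share of all genes. Positions of listed places as percentiles give the share with a lower value. Sequences were read from NCBI m37. The joining, counting and tag steps were tested on simulated data. Python 3.11.15, numpy 2.4.6, scipy 1.17.1 and matplotlib 3.10.9 were used.

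All promoters and peaks of the 10 genes are named, and of the wider list the genes with a Cxxc1 window in the region or with promoter windows in both genotypes. The members and lists were chosen with earlier results of these data known. Alternatives were the size of promoters and regions, all annotated TSSs, a stricter threshold of 2.2 RPM, the joining of windows and the overlap required.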

Additional observations from a re-analysis of the deposited data

How the results depend on the processing

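No paired analysis was possible because each genotype is represented by 1 library, and for the same reason no library could be left out. Of 46 recounts over 12 counts, 40 stayed within 1.5 times the value reported. Some could hardly move, such as the Cxxc1 count at promoters, which was 0 in every setting. Changes of exactly 1.5 times were counted as staying. At 2.2 RPM the genes listed at a promoter in Cxxc1-deficient cells fell from 3 to 2, against 2.66% of all genes, with Cd8a lost. The overlapped WT peaks fell from 6 to 4 when 50% of the shorter peak had to overlap, a setting not counted over all WT peaks. With peaks of at least 2.2 RPM, the genes with a Cxxc1 window in the region were 1 (Runx1, against 3.11% of all genes), those with a Cxxc1-deficient window in the region 2 (Gata3 and Runx1, against 4.88%), and those with a Cxxc1 window and promoters listed in both genotypes 1 (Runx1, against 0.107%, a setting chosen after seeing the data). When only adjoining windows were joined, the gene regions held 11 Cxxc1, 79 WT and 28 Cxxc1-deficient peaks. With 5 kb upstream in place of 10 kb, Cd8a had no Cxxc1 window, which left 4 genes against 10.3% of all. With 50 kb Zbtb7b gained a Cxxc1 window, which made 6 genes against 18.4% of all. Cd4 and Runx3 gained Cxxc1-deficient windows with 50 kb, which made 6 genes against 17.8% of all. With promoters of 2 kb on each side, Cd4 gained WT and Zbtb7b gained Cxxc1-deficient windows, and the shares of all genes were not counted. Of 16 promoter sums, 6 were larger over whole peaks by more than the counting interval, namely Zbtb7b P2 (2.8 RPM), Zbtb7b P3 (5.9), Runx1 P2 and P3 (6.9, the same peak), Gata3 P2 in WT (3.4) and Myb (5.8). Depth limits every statement on an unlisted place. The weakest listed peak held 10 tags, which is not the calling threshold itself, so an unlisted place can hold more.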
